A study of Mus musculus with 4 samples.

Results

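CTCF is a zinc-finger protein that binds DNA at insulators and, together with cohesin, at the anchors of chromatin loops. Its peaks were examined here at 6 imprinted loci that lie outside the distal part of chromosome 7: Dlk1 and Meg3, Peg3, Rasgrf1, Grb10, Mest and Plagl1. The members were taken by position, as every CTCF peak overlapping a fixed window of mouse build mm9, whatever its score. The windows themselves were chosen with earlier results of these data known. The windows were chr12:110600000-110900000 for Dlk1 and Meg3, chr7:6550000-6800000 for Peg3, chr9:89700000-90000000 for Rasgrf1, chr11:11750000-12020000 for Grb10, chr6:30600000-30800000 for Mest and chr10:12700000-12930000 for Plagl1. Peaks of the 3 stages that shared at least 1 bp were joined into regions, which gave 56 regions in the windows out of 70742 in the whole series. The regions of a window are numbered below in the order of their mm9 positions.

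The cells were MC3T3-E1 subclone 4, a clonal preosteoblast line from mouse calvaria, labelled C57BL/6 and grown to passages 28 to 31. Chromatin immunoprecipitation with sequencing was done with an antibody to CTCF (written Ctcf in the labels) on proliferating cells at day 0, matrix-depositing cells at day 9 and mineralizing cells at day 28. Differentiation was induced with ascorbic acid (280 µM) plus beta-glycerophosphate (10 mM); the labels do not say whether the day 0 cells had received it. Per the series' design text, 2 biological repeats were prepared per stage, but each stage has 1 deposited peak list, and input DNA from day 9 cells was not analysed here. The stages therefore have no replicate lists, no test between them was possible, and every difference below compares single lists. Peak lists hold no expression values, so the labelled cell types were not checked against markers.

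Imprinted genes are transcribed mainly from the maternal or the paternal copy, a choice set by DNA methylation laid down in the germ line at control regions. CTCF binding can be blocked by methylation of its site, and at the H19 and Igf2 locus it binds the unmethylated maternal control region and keeps enhancers from Igf2. A CTCF-binding control region upstream of Rasgrf1 has been described in mouse as well. The peak lists do not separate the parental alleles, so a peak in these windows may come from either copy or both.

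Peak scores are read here as -10 log10 of the p-value from the peak caller; they pile up at 3100, and a score of 3100 or slightly above is called saturated. A deeper library gives more peaks and higher scores, and the depth of these libraries is unknown. Scores were therefore read against the other peaks of the same list. Peaks numbered 67679 in all at day 0 against 42774 at day 9 and 45793 at day 28, so a weak site had more room to be listed at day 0. No gene annotation of mm9 was used, and no peak is assigned here to a promoter, exon or control region.

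Promoter sequence of the genes was available only for another build, GRCm38.p6, from RefSeq, and was not placed against the peaks. It spans 250 bases before to 50 bases after a gene's start. All 7 genes were found there, with 11 start sites in all. CTCF takes its name from the letters CCCTC. On either strand, with overlapping matches counted, these letters occurred at 10 of the 11 start sites and in 66% of all 32851 promoters of that table. The longer run AGGGGGC, part of the core of the CTCF binding motif, occurred on either strand at 1 of the 11 start sites, that of Rasgrf1, and in 10.6% of all promoters. It overlaps none of the letters in capitals below. The windows of Rasgrf1 and Plagl1 held the most regions scoring at least 500 at every stage, 4 and 5, among weaker ones. The Mest window held no peak of 500 or more. The promoters of these genes are shown 5′ to 3′ with CCCTC or its reverse complement GAGGG in capitals. Where a gene had several start sites, the one with the most CG dinucleotides is given.
Rasgrf1, GRCm38.p6 chr9:89909525-89909824, plus strand: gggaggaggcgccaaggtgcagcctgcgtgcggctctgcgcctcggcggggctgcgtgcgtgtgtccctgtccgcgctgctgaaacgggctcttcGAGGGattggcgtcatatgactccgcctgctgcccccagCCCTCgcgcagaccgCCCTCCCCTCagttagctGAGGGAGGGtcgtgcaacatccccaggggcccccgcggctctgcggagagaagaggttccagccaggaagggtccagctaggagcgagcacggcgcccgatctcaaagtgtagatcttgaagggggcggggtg
Plagl1, GRCm38.p6 chr10:13090582-13090881, plus strand: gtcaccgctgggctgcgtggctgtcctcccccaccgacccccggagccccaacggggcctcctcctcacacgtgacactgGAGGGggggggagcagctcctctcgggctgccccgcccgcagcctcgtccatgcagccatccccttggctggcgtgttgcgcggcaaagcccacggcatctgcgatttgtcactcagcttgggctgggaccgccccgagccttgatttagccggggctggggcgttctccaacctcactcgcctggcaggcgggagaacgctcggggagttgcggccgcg
Mest, GRCm38.p6 chr6:30737800-30738099, plus strand: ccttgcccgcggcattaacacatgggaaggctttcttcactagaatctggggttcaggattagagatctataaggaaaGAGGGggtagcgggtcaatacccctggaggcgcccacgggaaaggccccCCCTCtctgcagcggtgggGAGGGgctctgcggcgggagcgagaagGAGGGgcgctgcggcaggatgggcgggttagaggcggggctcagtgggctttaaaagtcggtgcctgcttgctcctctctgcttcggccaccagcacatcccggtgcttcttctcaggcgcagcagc
The letters occurred 6 times in the Rasgrf1 promoter, 1 time in the Plagl1 promoter and 4 times in the Mest promoter. CG dinucleotides numbered 26 in the Rasgrf1, 26 in the Plagl1 and 17 in the Mest promoter.

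The windows differed widely in the number and scores of their CTCF peaks. Rasgrf1, Plagl1 and Grb10 each held a region that stood at percentile 82.8 or above in every list, Dlk1 and Meg3 held 1 region saturated at day 0 among mostly weaker ones, with 8 of 13 day 0 peaks under 500. Peg3 held 3 day 0 peaks of 660 to 881, and all 5 day 0 peaks of Mest were under 500. In all, the windows held 48 peaks at day 0, 29 at day 9 and 32 at day 28. This came to 3.1, 1.87 and 2.06 peaks per 100 kb, against 2.63, 1.66 and 1.78 in the rest of the series. The densest window at day 0 was that of Dlk1 and Meg3, with 4.33 peaks per 100 kb. At day 9 and day 28 it was that of Plagl1, with 3.04 at each. The Peg3 window was the sparsest at day 0 and day 9, with 1.2 and 0.4 peaks per 100 kb, and the Mest window at day 28, with 0.5.

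**Figure D1:**
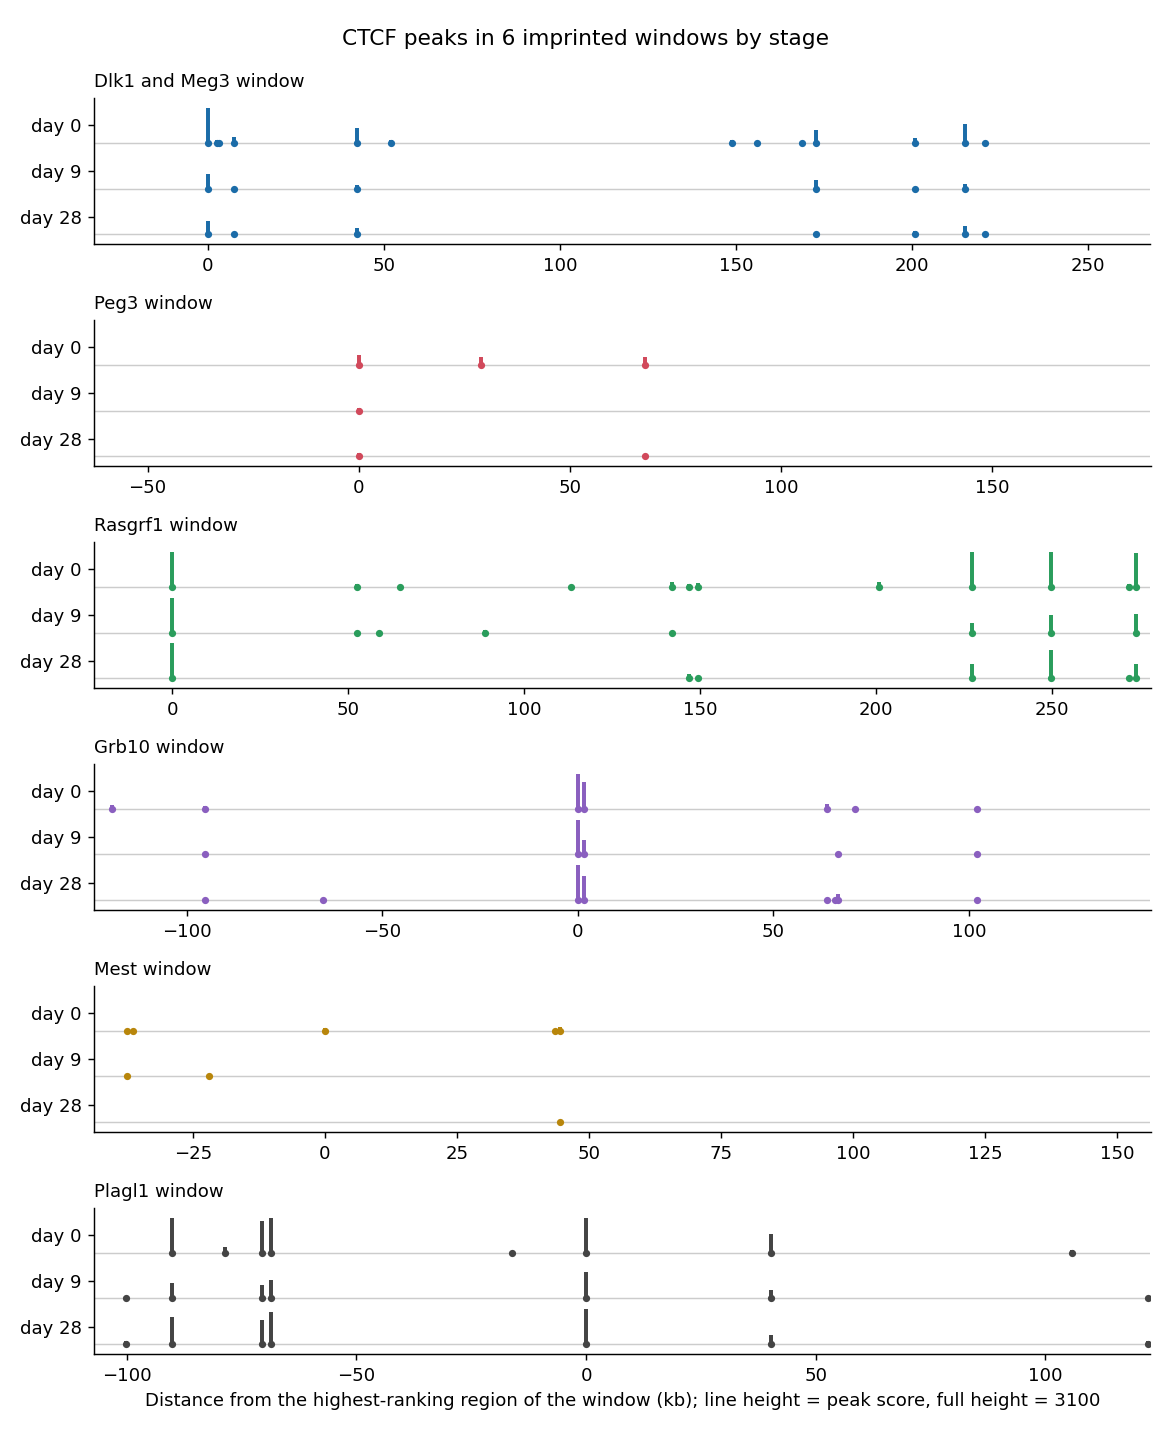
CTCF peaks in the 6 windows at day 0, day 9 and day 28, each panel spanning its whole window. The horizontal axis is the distance in kb from the highest-ranking region of the window, each dot is a peak and the height of its line is its score, with full height at 3100. Rasgrf1, Grb10 and Plagl1 have tall lines at every stage, while the 6 regions of Mest stay near the base line.

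Within their own lists, the peaks of the windows stood somewhat below the middle. At day 0 their median score was 373, against 553 for the rest of the series. The medians were 323 against 502 at day 9 and 355 against 659.6 at day 28. In percentiles of the whole list the windows stood at 40.9, 39.6 and 37.0. Saturated peaks numbered 7 of 48 at day 0 (14.6%), 1 of 29 at day 9 (3.45%) and 3 of 32 at day 28 (9.38%), against 18.1%, 11.3% and 18.7% of the whole lists. The spread among windows was larger than this shift: the median list percentile at day 0 was 75.5 for Plagl1, 54.2 for Peg3, 40.9 for Rasgrf1, 39.4 for Grb10, 34.3 for Dlk1 and Meg3 and 13.5 for Mest.

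**Figure D2:**
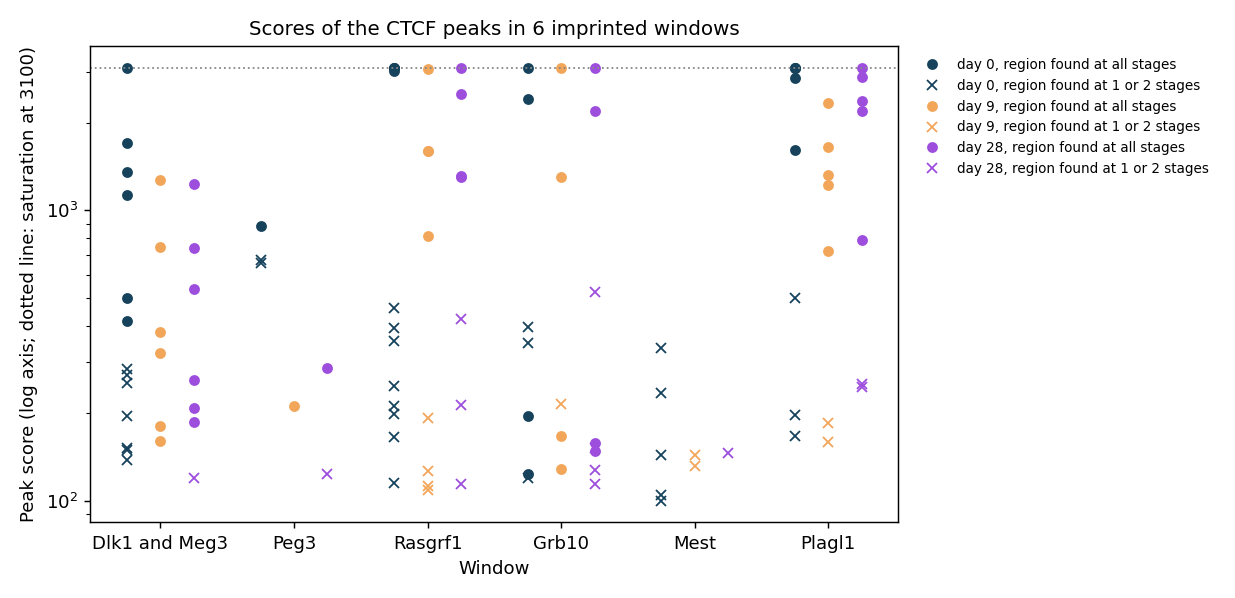
Scores of all peaks in the 6 windows on a log axis, by window and stage. Circles are peaks of regions found at all stages and crosses are peaks of regions found at 1 or 2 stages; the highest cross is a day 0 peak of Peg3 with a score of 672.

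Of the 56 regions, 20 were found at all 3 stages (35.7%, 95% Wilson interval 24.5 to 48.8, counting error only), against 52.3% of all regions in the series. Another 18 were found at day 0 only (32.1%, 21.4 to 45.2), against 31.1% of all regions. The remaining 18 were found at day 0 and day 28 (7 regions, background 7.53%), day 0 and day 9 (3, background 3.6%), day 9 and day 28 (3, background 1.5%), day 9 only (3, background 1.25%) and day 28 only (2, background 2.74%). A day 0 peak was present in 48 of the 56 regions (85.7%, 74.3 to 92.6), against 94.5% of the regions outside the windows. The lists differ in length, and the part of that difference in these shares was not tested. With each list limited to its 42774 highest-scoring peaks, 18 of 40 regions were found at all stages (45%, against 65.2% elsewhere) and 4 at day 0 only. Of those with no day 0 peak left, 5 were then found at day 9 and day 28, 5 at day 9 only and 3 at day 28 only. Some of these, such as regions 2 and 10 of Grb10, had a day 0 peak in the full list. It fell below the lowest day 0 score kept, 315, whereas the lowest day 9 score kept was 100. At this setting only the share found at all stages was computed over the series, not those of the other classes.

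The share found at all stages went with the score of the regions, but both come from the same peak calls. A region called in more lists has more scores that can reach 500, so part of this link is built in. Whether score accounts for the lower share in the windows was not tested. In the windows 36 of 56 regions scored under 500 in every list that held them (64.3%), against 48.3% in the rest of the series. Among the 20 regions that reached 500 in some list, 17 were found at all stages (85%, 64 to 94.8), against 89.3% of all such regions in the series. Among the 36 weaker regions, 3 were found at all stages (8.33%, 2.87 to 21.8), against 12.7% of all such regions. In either score class the share over the series lay inside the counting interval of the windows. The limit of 500 was taken up with the scores known.

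**Figure D3:**
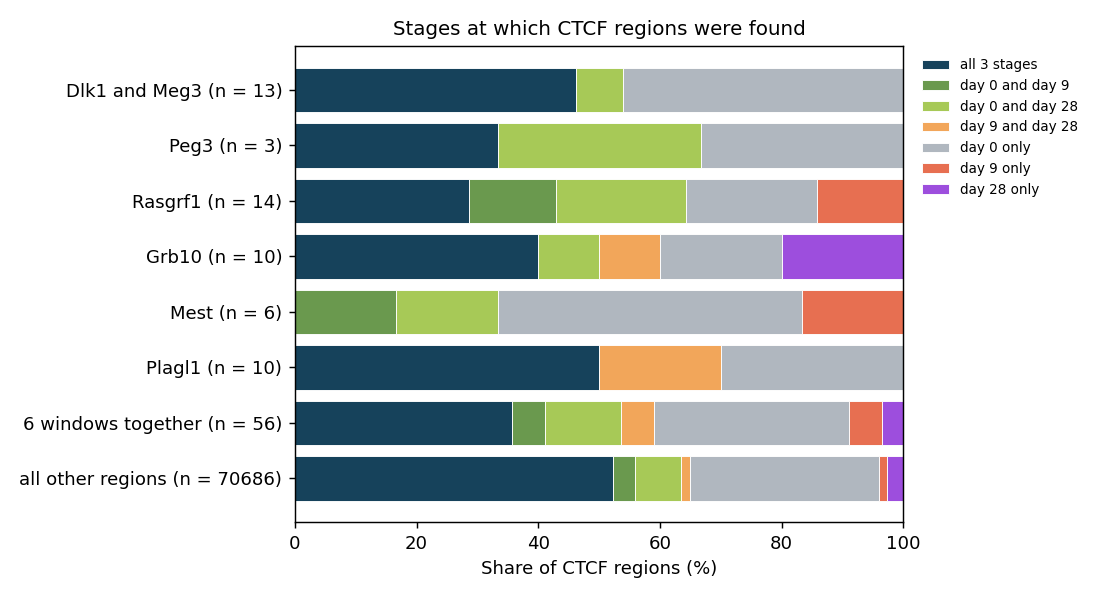
Share of CTCF regions (%) by the stages at which they were found, for each window, for the 6 windows together and for all other regions. Dark segments at the left are regions found at all 3 stages: 0 of 6 in the Mest window, 5 of 10 in the Plagl1 window and 52.3% of all other regions.

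The 20 regions found at all stages sat at nearly the same place each time, though part of this follows from joining peaks by overlap. Each had exactly 1 peak per list, and the centres of the 3 peaks lay within a median of 61.5 bp of one another (range 3.5 to 209.5), against 64.5 bp in the rest of the series. Their peaks had median widths of 612.5 bp in the day 0 list, 513.5 bp in the day 9 list and 747 bp in the day 28 list, against 647, 535 and 732 bp for such regions elsewhere. Of the 20, 19 were wider at day 28 than at day 9, the order that the series as a whole showed.

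Plagl1 encodes a zinc-finger transcription factor, also called Zac1, that is transcribed from the paternal copy. Its window had the most uniformly strong occupancy, with 10 regions of which 5 were found at all stages. The highest-ranking was region 7, on chromosome 10 at 12806549 to 12807616, with a saturated score at day 0, 2333 at day 9 and a saturated score at day 28. Region 2, at 12716400, was saturated at day 0 and scored 1327 at day 9 and 2379 at day 28. Both were thus high in every list, although neither was saturated at day 9.

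Regions 4 and 5 of the Plagl1 window formed a close pair, separated by 935 bp. Region 4, at 12735910, scored 2852 at day 0, 1223 at day 9 and 2189 at day 28. Region 5, at 12737862, scored 3085, 1655 and 2873. The second of the pair scored higher at every stage. Region 8, at 12846952, was weaker, with 1614, 726 and 788. After region 8 came the longest stretch without a peak in the window, 64.8 kb to region 9 at 12912580, which was found at day 0 only with a score of 198.

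The other regions of Plagl1 were weak. Region 3, at 12727954, scored 499 at day 0 and region 6, at 12790831, scored 168, and neither was found later. Region 1, at 12706726, and region 10, at 12929085, were not found at day 0; they scored 185 and 159.6 at day 9 and 246 and 252 at day 28. These were 2 of the 3 regions in all windows found at day 9 and day 28 without day 0. The count of regions found at all stages was 5 under each of the settings tried.

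Rasgrf1 encodes a guanine nucleotide exchange factor that activates Ras and is transcribed from the paternal copy in mouse brain. Its window held 14 regions, the most of any window. The 4 found at all stages were all strong, and the 10 others were all under 500. Region 1, on chromosome 9 at 89721536 to 89722667, was saturated at day 0, scored 3073 at day 9 and was saturated at day 28. It was also the widest peak of all windows, at 1106 bp at day 0. It was followed by the longest gap inside the window, 51.8 kb to region 2 at 89774429, which scored 248 at day 0 and 113 at day 9 and was not found at day 28.

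The other strong sites of the Rasgrf1 window lay together at its far end. Region 11, at 89948935, was saturated at day 0 and scored 816 at day 9 and 1302 at day 28. Region 12, at 89971444, was saturated at day 0 and scored 1602 at day 9 and 2522 at day 28. Region 14, at 89995497, scored 3023, 1606 and 1313. The order of these 3 sites was not the same at each stage: region 12 led at day 28, while regions 12 and 14 scored nearly alike at day 9. Widening the window by 50 kb at each end raised its regions found at all stages to 7.

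Between these strong sites the Rasgrf1 window held only weak peaks that changed from list to list. Day 9 alone gave region 3, at 89780539, with a score of 109 and region 5, at 89810696, with a score of 193. Day 0 alone gave region 4, at 89786345 (166), region 6, at 89835240 (115), and region 10, at 89922498 (393). Region 7, at 89863865, scored 461 at day 0 and 127 at day 9. Regions 8 and 9, at 89868635 and 89871244, were found at day 0 with 212 and 353 and at day 28 with 424 and 214. Region 13, at 89993704, scored 199 at day 0 and 114 at day 28. All of these lay below the middle of their lists.

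Grb10 encodes an adaptor protein that restrains insulin and insulin-like growth factor signalling; it is transcribed from the maternal copy in most mouse tissues and from the paternal copy in neurons. Its window held the one region of all 56 that was saturated in every list, against 6.63% of all regions in the series. This was region 4, on chromosome 11 at 11873151 to 11874087. Region 5 followed it after 651 bp, at 11874739, and scored 2407 in the day 0 list, 1306 in the day 9 list and 2196 in the day 28 list. The pair stood alone: the nearest region before it was 64.5 kb away, at 11808132, and was found at day 28 only with a score of 114.

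The rest of the Grb10 window was weak. Regions 2 and 10, at 11777878 and 11975462, were found at all stages with low scores. Region 2 scored 196 at day 0, 129 at day 9 and 149 at day 28, and region 10 scored 123, 167 and 159. With lists of equal length, where the lowest day 0 score kept was 315, both lost their day 0 peak, and 2 regions of the window were then found at all stages in place of 4. With the window widened by 50 kb at each end, 8 were.

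A small cluster of peaks that differed between the lists lay beyond the strong pair of the Grb10 window. Region 8, at 11939762, was not found at day 0 and scored 216 at day 9 and 522 at day 28. Of all regions in the series with a day 28 score of at least 500, 0.615% were found at day 9 and day 28 without day 0. Region 7, at 11939164 and 145 bp before it, was found at day 28 only with a score of 152. Region 6, at 11937003, scored 398 at day 0 and 127 at day 28. Region 9, at 11944244, was found at day 0 only with a score of 120.2. Region 1, which lay before the pair at 11754121, was also found at day 0 only, with a score of 349. With 1 list per stage these differences have no replicate check.

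Dlk1 encodes a transmembrane protein with epidermal growth factor-like repeats that holds back adipocyte differentiation and is transcribed from the paternal copy. Meg3, its neighbour, is a long non-coding RNA transcribed from the maternal copy. Their window held 13 regions, all of them with a day 0 peak, and 6 were found at all stages. Region 1, on chromosome 12 at 110631842 to 110632577, ranked highest: it was saturated at day 0 and scored 1274 at day 9 and 1231 at day 28. Regions 2 and 3, at 110634750 and 110635332, were found at day 0 only, with 272 and 138. Region 4, at 110639283, scored 500.5, 160.4 and 186.

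The middle of the Dlk1 and Meg3 window was empty of CTCF peaks. From region 6, at 110684225 to 110684556, to region 7, at 110781047, no list held a peak for 96.5 kb. This was the longest gap inside any of the 6 windows, and 92.3% of all gaps between neighbouring regions in the series were shorter. The regions on either side of it were weak and found at day 0 only, with scores of 254 and 285. Before the gap, region 5, at 110674313, scored 1357 at day 0, 323 at day 9 and 537 at day 28.

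Beyond the gap, region 10 of the Dlk1 and Meg3 window, at 110804703, scored 1133 in the day 0 list, 748 in the day 9 list and 208 in the day 28 list. It was the second strongest region of the window at day 9 and the second weakest of its 6 shared regions at day 28. Region 12, at 110847082, scored 1707, 382 and 743, and region 11, at 110832734, scored 416, 181 and 260. Regions 8 and 9, at 110788171 and 110800716, were found at day 0 only with 195 and 152. Region 13, at 110852728, scored 149 at day 0 and 119.6 at day 28. With a score of at least 500 required, 1 of the 6 regions, region 1, was still found at all stages.

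Peg3 encodes a large zinc-finger protein transcribed from the paternal copy. Its window was the poorest in regions, with 3 over 250 kb. Region 1, on chromosome 7 at 6612325 to 6612841, was found at all stages and scored 881 (day 0), 212 (day 9) and 287 (day 28). Region 2, at 6641366, scored 672 at day 0 and was found at neither later stage. It was the one region in the windows found at a single stage that reached 500, and 4.24% of all regions with a day 0 score of at least 500 were found at day 0 only. Region 3, at 6679872, scored 660.4 at day 0 and 123 at day 28, a pattern shown by 4.1% of the regions with a day 0 score of at least 500. All 3 regions thus stood near or above the middle of the day 0 list, at percentiles 59.6, 54.2 and 53.9, and region 2 was in neither later list. Region 1 stood at percentile 28.2 at day 9 and 32.7 at day 28, and region 3 at 7.88 at day 28. The gap between regions 2 and 3 was 38 kb, and after region 3 no list held a peak for 190 kb, past the end of the window.

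Mest encodes a protein with an alpha/beta hydrolase fold that is transcribed from the paternal copy. None of the 6 regions of its window was found at all stages, against 52.3% of all regions in the series. All 6 scored under 500 in every list, and 12.7% of such regions in the series were found at all stages. With 3 regions taken as the limit of a count of 0, 0 of 6 allows a share of up to 50%. The 95% Wilson upper limit is 39%, and both limits treat the regions as independent. The highest score of the window was 335, at day 0 in region 6, on chromosome 6 at 30687721 to 30688557. Region 6 scored 145.5 at day 28 and was not found at day 9. Region 5, at 30686833 and 93 bp before it, scored 105 at day 0. Region 4, at 30643229, scored 235 at day 0 and was separated from region 5 by 42.7 kb, the longest gap inside the window. Region 1, at 30605720, scored 100.1 at day 0 and 144 at day 9. Region 2, at 30606947, scored 143 at day 0 and region 3, at 30621484, scored 131 at day 9. With the window widened by 50 kb at each end, 1 region found at all stages entered it. After region 6 no list held a peak for 158 kb, past the end of the window.

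The stages were then compared through ranks among shared sites. Of the 20 regions found at all stages, 13 were saturated in no list. Their scores were ranked within each list over the same 23673 regions of the series that had 1 unsaturated peak per list, which gives percentiles from 0 to 100. From day 0 to day 9 the median shift of the 13 regions was -1.63 points (95% binomial interval of the median -13.7 to 6.25), against 0.05 in the rest of the series, and 6 of 13 stood higher at day 9. From day 9 to day 28 it was -0.10 (-13.6 to 3.03), against -0.25, and 6 of 13 stood higher at day 28. From day 0 to day 28 it was -7.02 (-13.8 to 4.66), against -0.36, and 4 of 13 stood higher at day 28. Each interval held 0, and it covers neither the replicate error nor the shared position of regions in a window.

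Single regions moved more than the median. Region 10 of Dlk1 and Meg3 stood at percentile 55.5 at day 0, 78.4 at day 9 and 19.7 at day 28. Its shift of -58.7 points from day 9 to day 28 was the lowest of the 13, and 0.0591% of all ranked regions shifted as far down. Its neighbours did not follow: regions 4, 5, 11 and 12 of that window shifted by -2.74, 3.20, 3.03 and 7.20 points over the same step. From day 0 to day 9, regions 5 and 12 shifted by -15.1 and -18.8 points, region 4 by -4.28 and region 11 by 6.17, whereas region 10 shifted by 22.9. Of all ranked regions, 14.1% shifted as far up over that step. From day 0 to day 28 region 10 shifted by -35.8 points, and 7.46% of all ranked regions shifted as far down. Region 10 was named as an extreme of the 13, so these shares are not tests.

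Among the ranked regions of the other windows, no shift was as large as those of region 10 of Dlk1 and Meg3. Region 14 of Rasgrf1 stood at percentiles 98.96, 97.3 and 79.3 at day 0, day 9 and day 28, and region 1 of Peg3 at 44.5, 30.8 and 30.7. The day 9 percentiles of the 3 ranked regions of Grb10 were all above those of day 0, by 4.58 for region 2, 4.96 for region 5 and 19.3 for region 10. The close pair of Plagl1 stayed near the top of these unsaturated regions, with region 4 at 96.3, 92.5 and 93.3 and region 5 at 99.8, 97.7 and 98.98. Region 8 of Plagl1 stood at 71.2, 77.5 and 63.9. No region saturated in any list is in this ranking. With saturated regions kept as ties, region 4 of Plagl1 stood at 65.2, 65.5 and 68.0 and region 5 at 67.9, 72.7 and 75.75. Region 14 of Rasgrf1 then stood at 67.15, 72.0 and 55.3.

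When saturated regions were kept as ties, all 20 regions could be placed. Region 1 of Dlk1 and Meg3 then stood at percentiles 84.0, 66.6 and 53.7 at day 0, day 9 and day 28. Region 11 of Rasgrf1 stood at 84.0, 55.7 and 55.1, and region 2 of Plagl1 at 84.0, 67.5 and 70.3. Region 1 of Rasgrf1 and region 4 of Grb10 kept a high place, at 84.0, 87.4 and 88.9 for Rasgrf1 and 84.0, 93.8 and 88.9 for Grb10. All saturated regions share 1 rank within a list, so a site at the saturated score cannot be ranked further. That shared rank differs between lists, at 84.0, 93.8 and 88.9. The places of region 4 of Grb10, saturated in every list, are this rank alone and show no movement of the site.

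**Figure D4:**
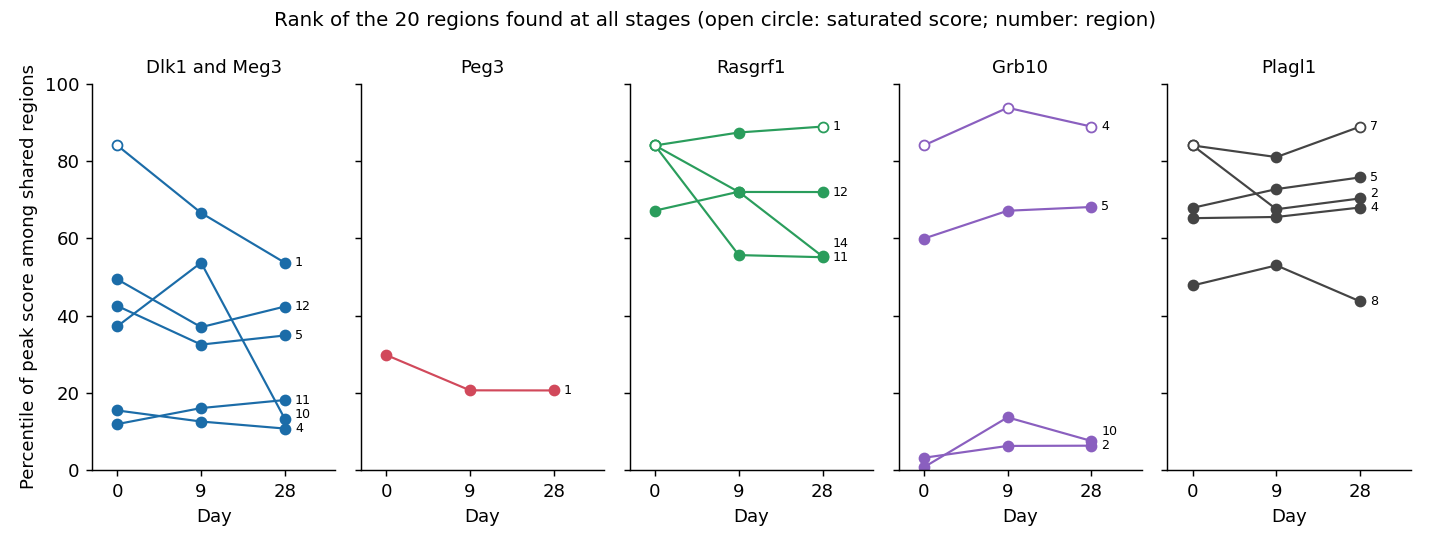
Percentile of the score among shared regions (0 to 100, saturated scores kept as ties) at day 0, day 9 and day 28 for the 20 regions found at all stages, by window; open circles are saturated scores and numbers are the regions. Region 10 of Dlk1 and Meg3 crosses its neighbours between day 9 and day 28, while regions 2, 4, 5 and 7 of Plagl1 and the upper pair of Grb10 stay in the upper part.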

How the data were processed

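The submitters' processing notes name build mm9, the peak caller MACS 1.4.1, the aligner Bowtie 0.12.8 and CASAVA 1.6; inserts of 200 ± 50 bp were read for 36 bases. The deposited score per peak is taken to be the -10 log10 of the p-value that MACS writes. How the 2 repeats and the input entered a list is not given in the sources used here.

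Peaks were joined by 1 bp overlap, after tests on simulated data, and positions were counted from 1. Shares carry 95% Wilson intervals. Percentiles used mean ranks for ties, with scores above 3100 set to 3100 (python 3.11.15, scipy 1.17.1). The alternatives were scores of at least 200 or 500, equal list size, an overlap of 50% of the shorter peak, windows widened by 50 kb and saturated regions kept. The rule for naming regions took the highest-ranking shared region of each window, regions at 1 or 2 stages scoring at least 500, the ends of the longest gap and the extreme shifts; the rest are given more briefly. Members, windows and alternatives were chosen with earlier results of these data known.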

Additional observations from a re-analysis of the deposited data

How the results depend on the processing

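No paired analysis was possible because each stage has 1 list and no replicate. Requiring peaks to overlap by 50% of the shorter one changed none of the counts and moved the 3 median shifts little, and with saturated regions kept the 3 shifts stayed inside their intervals. The sign turned for 2 of them: the shift from day 0 to day 9 was then 1.69 and that from day 9 to day 28 was 0.02. The shift from day 9 to day 28 was also positive at a score of at least 200 (1.15) and at equal list size (0.47). A score of at least 200 left 36 regions, with 17 peaks at day 9. The share found at all stages was 44.4%, against 54% elsewhere. There were then 0 regions missing only at day 28, 3 missing only at day 9, 1 missing only at day 0 and 0 found at day 9 only. Grb10 had 2 regions at all stages, and the median shift from day 0 to day 28 was -17.6 points over 9 regions. A score of at least 500 left 20 regions, with 19, 13 and 15 peaks at day 0, day 9 and day 28. There were then 12 regions found at all stages (60%, against 55.3% elsewhere), 1 missing only at day 28, 2 missing only at day 9 and 0 missing only at day 0. Single-stage regions numbered 4, 0 and 1 for day 0, day 9 and day 28. Dlk1 and Meg3 had 1 region at all stages, Peg3 0 and Grb10 2.

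Equal list size left 27 day 0 peaks. It gave 1 region missing only at day 28, 4 missing only at day 9, 5 missing only at day 0, 4 found at day 0 only and 5 at day 9 only, and Grb10 had 2 at all stages. The share at all stages was 45%, against 65.2% elsewhere. This setting removes weak peaks of day 0 and day 28 and none of day 9. Windows widened by 50 kb gave counts at all stages of 2 for Peg3, 7 for Rasgrf1, 8 for Grb10 and 1 for Mest. The share at all stages was then 40.8% of 71 regions, against 52.3% elsewhere. Rasgrf1 and Plagl1 held 4 and 5 regions at all stages under both score limits and at equal list size. Mest held 0 under these settings, which only remove peaks, so its count could not rise from 0. Under the alternative settings only the share at all stages was computed over the series. Counts of the other stage classes there have no background beside them and are not read as results about the windows. The unknown depth of the lists limits every statement that a site was not found.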
